A study of Mus musculus with 42 samples.

Results

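HOXC13:C10.1 is a chimeric Hox transcription factor that joins the N-terminal part of HOXC13 to the homeodomain and C-terminus of HOXC10. Its genomic binding was compared with that of full-length HOXC10 and HOXC13 in differentiating mouse neurons at day 3. A binding event is a position at which the MultiGPS caller found ChIP-seq reads above a control library, and its ChIP read count is the estimated number of reads assigned to it. The chimera list held 99228 events on chromosomes 1 to 19 and X, and the 10000 events with the highest ChIP read count were taken as its top sites. Each top site was placed in 1 of 4 classes by the events of the full-length factors within 100 bp. A site near HOXC10 but not HOXC13 is called HOXC10 alone, and the other classes are HOXC13 alone, both and neither. The last site inside the top 10000 had 512.4 ChIP reads and the first outside had 512.3.

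The series holds 42 ChIP-seq samples from embryonic stem cells that were grown as embryoid bodies, most of them patterned towards spinal motor neurons. All cells used here received retinoic acid and a smoothened agonist (SAG), and carried a tagged Hox transgene that doxycycline (Dox) switches on, which was induced for the last 24 h. The chimera group had 2 libraries of the line Ainv15(iFlag.Hoxc13:c10.1(399)), both precipitated with an anti-Flag antibody. The HOXC10 group had 3 libraries, of which replicate 1 came from the line Ainv15(iHoxc10.V5) with an Abcam antibody and replicates 2 and 3 from Ainv15(iFlag.Hoxc10) with the Flag antibody. The HOXC13 group had 2 libraries, replicate 1 from Ainv15(iFlag.Hoxc13) with the Flag antibody and replicate 2 from Ainv15(iHoxc13.HA) with an HA antibody. All 3 groups are gain-of-function models. The transgene is expressed from an inducible promoter in every cell that responds to Dox, whatever Hox genes the cell transcribes itself.

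Every list pools its libraries. No value per library exists for an event, so there is no error between differentiations and no test was run. Shares are given with 95% Wilson intervals and differences with Newcombe intervals, which treat sites as independent and cover counting error only. The 2 chimera libraries had 29.2 and 28.5 M reads, and MultiGPS assigned 0.335 and 0.527 of them to signal. The HOXC13 libraries were similar, with 26.5 and 31.02 M reads and signal fractions of 0.375 and 0.327. The HOXC10 libraries had 5.04 to 21.8 M reads and signal fractions of only 0.017 to 0.161. The HOXC10 list was the shortest, with 26859 events against 115819 for HOXC13. The chimera was called against a control library of 20.3 M reads and both full-length factors against 1 of 20.6 M.

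Hox genes encode homeodomain transcription factors that give cells along the body axis their positional identity. The homeodomain contacts DNA, while the N-terminal part contributes to contacts with cofactors. Central Hox factors favour a TAAT core and posterior factors, to which HOXC10 and HOXC13 belong, favour TTTAT, with TTTAC as a further motif of HOXC13. PBX and MEIS, homeodomain proteins of the TALE class, are Hox cofactors, and a PBX half-site next to a posterior Hox half-site reads TGATTTAT. HOXC10 is a factor of lumbar motor neurons, whereas HOX13 paralogs act at the end of the axis.

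The 2 strongest sites of each class are shown first as examples of the bases in which the motifs are later counted. Each is 101 bases of the plus strand of GRCm38.p6, the assembly of mm10, centred on the event. Capitals mark every TTTAT or TTTAC on either strand, so that ATAAA and GTAAA are the same motifs on the minus strand.
Both, chr15:103014615-103014715: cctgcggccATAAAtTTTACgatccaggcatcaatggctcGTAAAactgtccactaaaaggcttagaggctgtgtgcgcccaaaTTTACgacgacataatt
Both, chr9:29318880-29318980: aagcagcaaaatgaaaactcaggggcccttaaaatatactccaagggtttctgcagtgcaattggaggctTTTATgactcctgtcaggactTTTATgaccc
HOXC10 alone, chr16:29725178-29725278: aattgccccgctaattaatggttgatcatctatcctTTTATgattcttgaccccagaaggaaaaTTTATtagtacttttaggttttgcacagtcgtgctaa
HOXC10 alone, chr3:5453721-5453821: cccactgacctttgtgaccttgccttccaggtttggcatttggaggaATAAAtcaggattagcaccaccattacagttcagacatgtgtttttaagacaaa
HOXC13 alone, chr15:24429204-24429304: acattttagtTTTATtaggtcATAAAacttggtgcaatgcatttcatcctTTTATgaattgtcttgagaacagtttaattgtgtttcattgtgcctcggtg
HOXC13 alone, chr5:101813433-101813533: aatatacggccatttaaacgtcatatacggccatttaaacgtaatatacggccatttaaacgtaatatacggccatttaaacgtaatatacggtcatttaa
Neither, chr7:70864616-70864716: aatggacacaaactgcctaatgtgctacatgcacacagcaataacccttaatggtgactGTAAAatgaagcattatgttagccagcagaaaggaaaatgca
Neither, chr10:69719900-69720000: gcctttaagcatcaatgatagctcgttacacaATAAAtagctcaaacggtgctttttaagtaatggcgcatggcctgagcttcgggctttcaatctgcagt

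The strongest chimera site of all lay in the HoxC cluster, in a promoter of Hoxc5, 0.85 kb from its nearest annotated transcription start site (TSS). It had 15474.5 ChIP reads in the chimera list, 1052.5 in the HOXC10 list and 3550.1 in the HOXC13 list. The event ranked 27 in the HOXC10 list and 67 in the HOXC13 list. Here and below, counts are not normalized between lists and do not compare levels of binding. The 101 bases of this site hold 3 copies of TTTAC and 1 of TTTAT. The second strongest site, with 15272.9 reads, lay in an intron of Ntm, which encodes the neuronal adhesion molecule neurotrimin. At that site the HOXC10 event had 105.2 reads at a distance of 63 bp and the HOXC13 event 5362.0 reads at 6 bp. The third, with 10252.3 reads, lay in an intron of Spata17.

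The strongest HOXC13-alone site ranked 4 in the chimera list with 10066.8 reads. It was intergenic, 984.4 kb from the TSS of Basp1, which encodes a membrane protein of growth cones. HOXC13 itself had 5344.6 reads 4 bp away, its rank 5, and the nearest HOXC10 event was 33625 bp away. The second, in an intron of Cds1 at rank 11, holds neither TTTAT nor TTTAC and is built of tandem copies of a sequence unit. The third, with 8438.8 reads, had Msrb3 as the nearest gene.

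HOXC10-alone sites began lower in the ranking, under classes set with the full, unequal list lengths. The strongest had 6589.4 reads at rank 42 and was intergenic, 108.6 kb from the TSS of Opa1. The second had 6476.7 reads near Pex2. The third had 6075.1 reads and was 74.5 kb from the TSS of Irx3, a homeobox gene of the ventral neural tube. A HOXC13 event of 67.5 reads lay 206 bp away, beyond the 100 bp limit. The strongest site of neither class had 5777.1 reads at rank 56 and was 486.8 kb from the nearest annotated protein-coding TSS, that of Gm10295. The next ones lay in an intron of Ank3, which encodes the axonal scaffold ankyrin G, with 4406.2 reads, and in a UTR exon 1.93 kb from a TSS of Exoc1, with 4091.8 reads.

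The top chimera sites were divided over all 4 classes. HOXC10 alone held 1570 sites (15.7%, 15.0 to 16.4%), HOXC13 alone 3092 (30.9%, 30.0 to 31.8%), both 3486 (34.9%, 33.9 to 35.8%) and neither 1852 (18.5%, 17.8 to 19.3%). Over all 99228 chimera events the shares were 12.8% HOXC10 alone, 28.4% HOXC13 alone, 9.1% both and 49.7% neither. The top sites therefore differed from the full list mainly in the both class, which was larger, and in the neither class, which was smaller. In all, 50.6% of top sites had a HOXC10 event within 100 bp and 65.8% a HOXC13 event, against 21.9% and 37.5% over all chimera events. Only 0.204% of the bases of these chromosomes lie within 100 bp of a HOXC10 event and 0.877% within 100 bp of a HOXC13 event.

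The share of top sites near HOXC13 was thus 15.2 percentage points above the share near HOXC10 (13.9 to 16.5 points). This order depended on the length of the lists. With the HOXC13 list shortened by ChIP reads to the 26859 events of the HOXC10 list, the difference was -9.0 points (-10.3 to -7.65), so that more top sites lay near HOXC10. With the top 10000 events of each full-length factor it was -8.48 points. The order of the alone classes necessarily turned with it, because the both class counts on each side of the difference. With equal lengths HOXC10 alone took 28.5% of the top sites, HOXC13 alone 19.5%, both 22.0% and neither 29.9%. The depth and signal fraction of the HOXC10 libraries, given above, move with the length of that list, and their part in the order was not tested.

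The class shares changed along the ranking. Among the strongest 1000 sites, 58.5% were near both factors and 5.7% near neither. Among the last 1000 of the top sites the shares were 25.3% and 25.7%. Over the 10 bins of 1000 sites, HOXC10 alone took between 110 and 185 sites and HOXC13 alone between 248 and 330. Because rank was set by the ChIP read count in the chimera list, the class medians of that count are not a separate result. They were 998.3 reads for both, 830.5 for HOXC13 alone, 800.3 for HOXC10 alone and 721.8 for neither.

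**Figure D1:**
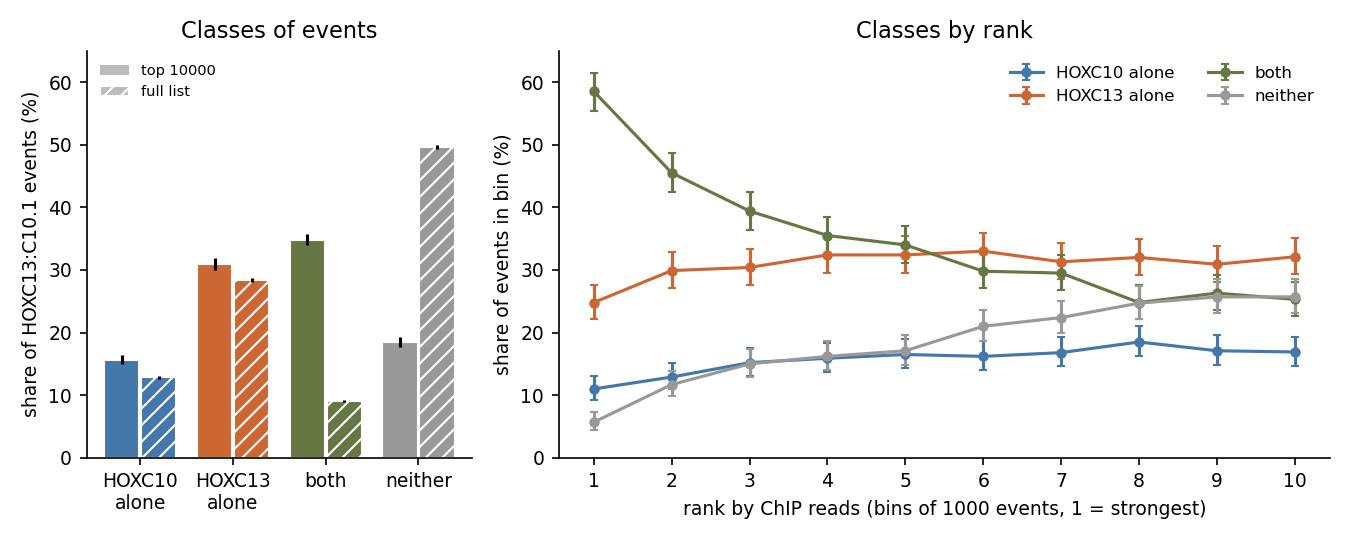
Share of HOXC13:C10.1 events (%) in each class. Left, the top 10000 events (plain bars) and the full list of 99228 (hatched bars); right, the share in each bin of 1000 events by rank. Bars and lines carry 95% Wilson intervals. The both class falls from 58.5% to 25.3% over the 10 bins while neither goes from 5.7% to 25.7%.

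Where a full-length factor had an event near a chimera site, the positions were close. The median offset was 14.5 bp to HOXC10 at HOXC10-alone sites and 13 bp to HOXC13 at HOXC13-alone sites, and 84.5% and 89.3% of these events lay within 50 bp. In both lists the events met by the chimera ranked above the list as a whole. At HOXC10-alone sites, 65.7% of the HOXC10 events belonged to the top 10000 of their own list, with a median of 148.5 reads, where the top 10000 are 37.2% of the whole list. At HOXC13-alone sites, 37.7% of the HOXC13 events belonged to the top 10000 of theirs, with a median of 232.2 reads, where the top 10000 are 8.63% of the whole list.

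The median distance of HOXC13-alone sites to the nearest of the 26859 HOXC10 events was 25.0 kb, and that of HOXC10-alone sites to the nearest of the 115819 HOXC13 events was 4.13 kb. These distances move with the list lengths and were not compared. Counted from the other side, 88.9% of the top 10000 HOXC10 events (88.3 to 89.5%) had a chimera event of any rank within 100 bp, and 64.6% of the top 10000 HOXC13 events (63.7 to 65.6%). When only the top 10000 chimera sites were counted, the shares were 26.95% and 20.8%. Between the full-length factors, 39.4% of the top HOXC10 events lay near any HOXC13 event and 17.5% of the top HOXC13 events near any HOXC10 event. These shares too move with the lengths of the lists searched, and they were not set against those of the chimera.

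Top sites were not always separate loci. Joining sites up to 500 bp apart gave 8021 loci, of which 6496 held 1 site and 1525 held between 2 and 8. Of the latter, 622 held sites of more than 1 class. Counted by the best site of each locus, HOXC10 alone took 16.1%, HOXC13 alone 31.9%, both 34.4% and neither 17.7%.

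The sequence under the sites differed by class, which the class rule did not use. TTTAT was present within 50 bp of 80.0% of HOXC13-alone sites (78.5 to 81.3%), 72.4% of sites near both, 62.6% of sites near neither and 55.2% of HOXC10-alone sites (52.8 to 57.7%). HOXC13-alone sites stood 24.7 percentage points above HOXC10-alone sites (21.9 to 27.6). Over all chimera events the TTTAT share was 65.2%, above those of HOXC10-alone and neither sites. Windows of the same length 1 kb to the side held TTTAT in 33.6 to 35.5% of cases in every class, and promoter windows of that length in 16.5%.

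TTTAC also differed by class. It was found at 37.4% of HOXC13-alone sites (35.7 to 39.1%) and 32.7% of sites near both. At HOXC10-alone sites the share was 21.02% (19.1 to 23.1%), and at sites near neither 22.6%, close to the 18.9 to 19.8% of the flanks and above the 11.9% of promoter windows. TTTAC was present at 28.7% of all chimera events. The difference between HOXC13 alone and HOXC10 alone was 16.4 points (13.7 to 18.96). Of the sequences printed above, the Hoxc5 promoter site of the both class holds 3 copies of TTTAC and the first site of the neither class 1, and the others, those of HOXC13 alone and HOXC10 alone included, hold none. Both motifs together were present at 27.9% of HOXC13-alone sites and 10.7% of HOXC10-alone sites. Neither was present at 10.6% and 34.5%.

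TAAT, the core of central Hox factors, varied little. It was present at 76.1 to 79.7% of sites in the 4 classes, against 51.6 to 52.7% of the flanks and 30.0% of promoter windows. Over all chimera events the TAAT share was 76.45%, near that of every class. The composite PBX-Hox motif TGATTTAT was found at 6.63% of sites near both (5.85 to 7.50%) and 5.29% of HOXC10-alone sites (4.29 to 6.51%), against 2.75% of HOXC13-alone sites (2.23 to 3.39%). Its variant TGATTTAC was found at 2.74%, 0.744% and 2.15% of HOXC10-alone, HOXC13-alone and both sites. TGATTTAT contains TTTAT and TGATTTAC contains TTTAC, so these are not separate from the counts above. Over all chimera events TGATTTAT was found at 4.45% and TGATTTAC at 1.32%. In the flanks the composite motifs were present at 0.803% or less, and in promoter windows at 0.316 and 0.178%. The MEIS motif TGACAG was found at 7.67 to 11.3% of sites and at 6.398 to 6.77% of the flanks, and in 6.73% of promoter windows. Its share over all chimera events was 9.35%.

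**Figure D2:**
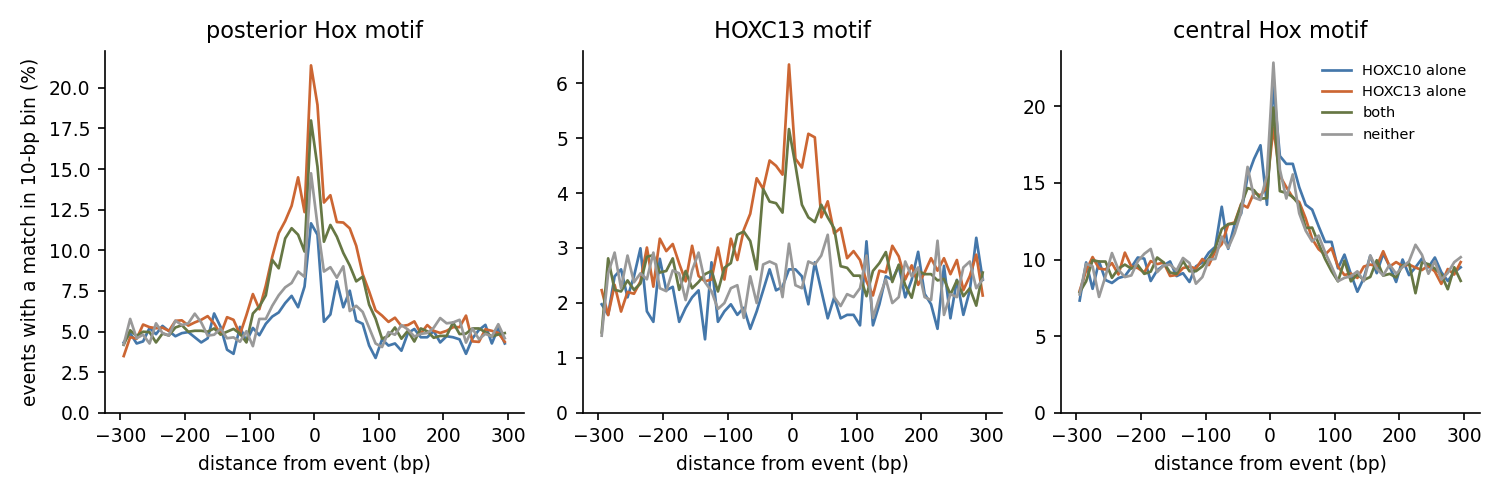
Share of sites (%) with a motif match on either strand in each 10-bp bin, up to 300 bp from the event, for TTTAT (posterior Hox motif), TTTAC (HOXC13 motif) and TAAT (central Hox motif). Lines are the 4 classes. At the centre TTTAT reaches 21.4% of HOXC13-alone sites and 11.7% of HOXC10-alone sites, TTTAC 6.34% and 2.61%, and TAAT between 18.6% and 22.8% in all classes.

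All sequences of 6 bases were then counted at the sites, and the one with the widest gap towards HOXC13 alone and the 2 with the widest gaps towards HOXC10 alone were picked after their values were seen. TTTTAT, an extension of TTTAT, was present at 52.2% of HOXC13-alone sites and 24.2% of HOXC10-alone sites. In the other direction, ATTGAT was present at 16.2% of HOXC10-alone sites and 6.95% of HOXC13-alone sites. CATCTG, which has the CANNTG form of an E-box, was present at 16.6% and 7.44%. In the flanks of the 4 classes TTTTAT was present at 14.7 to 15.6%, ATTGAT at 4.52 to 5.60% and CATCTG at 6.10 to 8.31%, and promoter windows held them at 6.52, 2.72 and 6.20%. Base composition moved with these counts. The median GC content of the 101 bases was 42.1% at HOXC10-alone sites, 37.6% at HOXC13-alone sites, 40.6% at sites near both and 39.6% at sites near neither, and in the flanks 41.6 to 42.6%. Its part in the motif shares was not tested.

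The other day 3 lists of the series, none of which the class rule used, were set against the classes next. They are pooled lists of unequal length, from 8154 to 87224 events. HOXC13:C10.2, the companion chimera with slightly more of HOXC10 in front of the homeodomain, had an event within 100 bp of 93.5% of the top sites and 58.4% of all chimera events. The shares were 99.4% at HOXC10-alone sites, 99.5% at both, 89.3% at HOXC13-alone and 84.2% at neither. Among its own top 10000 events the split was wider. These lay near 78.5% of HOXC10-alone and 78.4% of both sites, but near 19.1% of HOXC13-alone and 18.2% of neither sites.

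The reciprocal chimeras, which carry the HOXC13 homeodomain on a HOXC10 N-terminus, met fewer of the sites. HOXC10:C13.2 had events at 65.7% of both sites, 44.9% of HOXC13-alone, 26.6% of HOXC10-alone and 6.16% of neither sites, and HOXC10:C13.1 at 50.5%, 25.6%, 23.9% and 3.67%. Over all chimera events they were near 18.7% and 14.2%. The neither class was therefore the one that these chimeras shared least, although HOXC13:C10.2 shared 84.2% of it.

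HOXC9, another posterior factor, was near most sites of every class, with 98.5% of HOXC10-alone, 93.5% of HOXC13-alone, 99.3% of both and 80.9% of neither sites, against 55.6% of all chimera events. HOXC6, a central factor, was near 66.6% of HOXC10-alone sites (64.3 to 68.9%) and 53.7% of both sites, but 12.8% of HOXC13-alone sites (11.6 to 14.0%) and 20.6% of neither sites. Over the full chimera list HOXC6 was near 14.5% of events. HOXC8 gave 86.8%, 30.0%, 78.1% and 38.5% of HOXC10-alone, HOXC13-alone, both and neither sites, and HOXD9 gave 85.1%, 20.1%, 87.9% and 19.1%. Over all chimera events HOXC8 was near 29.3% and HOXD9 near 29.7%. At HOXC13-alone sites the shares of HOXC6 and HOXC8 were within 2 points of those over all chimera events, and that of HOXD9 was lower. HOXA9 was near 61.6% of HOXC13-alone sites against 40.9% of all chimera events. Over all 10000 top sites HOXC6 was near 36.9%, HOXC8 near 57.25%, HOXD9 near 53.7% and HOXA9 near 76.1%. For each of these factors the share at HOXC13-alone sites was below that of the top sites as a whole.

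Most sites of the neither class, as of the other classes, were near another full-length Hox factor. Of the 1852 sites, 1590 (85.9%) had an event of HOXC6, HOXC8, HOXC9, HOXA9 or HOXD9, against 94.8% of HOXC13-alone, 99.8% of HOXC10-alone and 99.9% of both sites and 64.95% of all chimera events. Of the neither sites, 146 had one of HOXC13:C10.2 and no full-length factor, and 115 (6.21%) had no event of any other day 3 Hox list.

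MEIS events, which were mapped in iHoxc6, iHoxc9 and iHoxc10 cells with 1 library each, also divided the classes. The MEIS list of iHoxc10 cells had an event near 39.7% of HOXC10-alone sites (37.3 to 42.1%) and 32.2% of both sites, but near 2.10% of HOXC13-alone sites (1.65 to 2.67%) and 4.59% of neither sites. Over the full chimera list it was near 7.30%. The difference between HOXC10 alone and HOXC13 alone was 37.6 points (35.1 to 40.1).

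In iHoxc9 cells MEIS was near 50.3% of HOXC10-alone, 52.0% of both, 9.67% of HOXC13-alone and 10.5% of neither sites. In iHoxc6 cells the shares were 31.3%, 27.8%, 2.91% and 4.32%. Over the full chimera list they were 12.65% and 5.76%. The pattern was present along the ranking. In iHoxc10 cells MEIS was near 41.3% of HOXC10-alone sites and 2.07% of HOXC13-alone sites among the strongest 5000 sites, and near 38.4% and 2.13% among the other 5000. The lines with MEIS libraries carried no HOXC13 or chimera transgene.

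**Figure D3:**
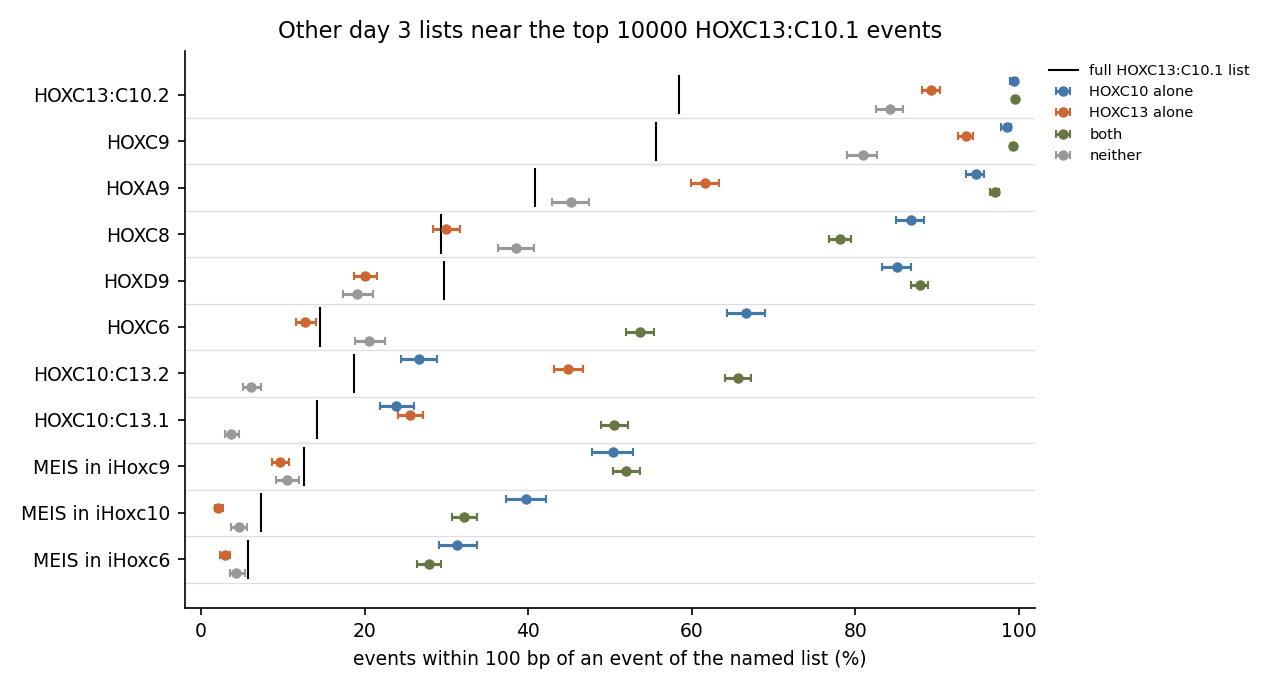
Share of top HOXC13:C10.1 sites (%) with an event of another day 3 list within 100 bp, by class, with 95% Wilson intervals. The black tick is the share over the full chimera list of 99228 events. HOXC13-alone sites (orange) are near HOXC9 at 93.5% and near the MEIS lists at 2.10 to 9.67%.

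The classes lay in like positions relative to genes. Of the HOXC10-alone sites, 2.93% were within 1 kb of a protein-coding TSS (46 sites), against 2.59% of HOXC13-alone (80), 3.21% of both (112) and 3.24% of neither sites (60). The difference between HOXC10 alone and HOXC13 alone was 0.343 points, with an interval of -0.613 to 1.42 that includes 0. Such windows cover 3.70% of the bases. The median distance to a protein-coding TSS was 68.6 kb for HOXC10 alone, 59.0 kb for HOXC13 alone, 61.9 kb for both and 62.7 kb for neither, and 38.3 to 40.9% of sites were over 100 kb away.

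Introns of protein-coding genes held 42.2% of HOXC10-alone, 41.3% of HOXC13-alone, 41.9% of both and 39.5% of neither sites, where 33.4% of the bases lie in them. Intergenic sequence held 44.8 to 47.8% of sites and 53.3% of the bases. Coding exons held 0.230 to 0.324% of sites and 0.979% of the bases.

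The genes with the most sites of each class were then listed, a choice made by those same counts. Each site was assigned to the protein-coding gene with the nearest TSS within 100 kb, which covered 6077 sites and 3042 genes. The genes with the most HOXC10-alone sites, 4 each, were Psat1, Paqr3, Chn2, Olig2 and Lmx1b. Olig2 encodes the bHLH factor of motor neuron progenitors, and all its 4 top sites were HOXC10 alone. They lay 32.7 to 52.1 kb from its TSS on chromosome 16, outside genes. Their chimera ChIP reads were 2360.3, 994.1, 583.0 and 568.2, and the HOXC10 events beside them had 1216.7, 254.4, 160.6 and 58.2 reads, in the same order.

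Lmx1b, a LIM homeobox gene of the dorsal limb and spinal cord, had 4 HOXC10-alone sites of its 6. Psat1, an enzyme of serine synthesis, had 4 of 5. The 5 sites lay 71.8 to 81.9 kb from its TSS, and the strongest were a both site of 4868.6 reads and a HOXC10-alone site of 4581.6. Chn2, which encodes a Rac GTPase-activating protein, had 4 of 9, all in introns, and Paqr3 4 of 7. Some of these sites neighbour each other, as at Paqr3, where sites at 97195385 and 97195427 on chromosome 5 share 1 HOXC10 event.

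HOXC13-alone sites were most frequent near Skap2, Pdgfc, Nrcam and Anapc10, with 6 each, and Ppp4r2, with 5. Pdgfc, a platelet-derived growth factor gene, had 6 HOXC13-alone sites and 1 site of neither class, and no HOXC10 event at any of them. The strongest, in its intron at 81047535 on chromosome 3, had 2672.6 chimera reads and 4287.1 HOXC13 reads. Nrcam, a neuronal cell adhesion gene, had 6 HOXC13-alone sites and 4 of neither class, at 513.4 to 1542.0 reads. It was named under both classes. Anapc10, a subunit of the anaphase-promoting complex, also had no HOXC10 event at its 7 sites. Skap2 had 17 top sites, 6 of them HOXC13 alone, 7 both, 3 neither and 1 HOXC10 alone. Here too some sites neighbour each other. At Ppp4r2 the sites at 100959737, 100959798 and 100959841 on chromosome 6 share 1 HOXC13 event.

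The genes with the most both sites, by which they were chosen, were Auts2, Gas1, Skap1, Meis2 and Cacna2d1. Some of their sites neighbour each other as well. Auts2, a gene of neuronal development, had 19 top sites, of which 14 were near both factors and 3 HOXC10 alone. The strongest had 7216.7 reads at rank 31. Gas1, which encodes a co-receptor for Sonic hedgehog, had 11 of 12 in the both class and Skap1, next to HoxB on the side of Hoxb1, had 11 of 17. Meis2, a TALE cofactor gene, had 10 of 12, and Cacna2d1, a calcium channel subunit gene, 9 of 12.

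In the neither class the leading genes were Nrcam, Dlg2, Kcnip4, Otc and Mdm1, with 4 sites each. Dlg2 encodes a synaptic scaffold and Kcnip4 a potassium channel-interacting protein, and both are long genes whose sites lay in introns. All 4 sites of Otc, a urea cycle enzyme gene on chromosome X, fell between 10276879 and 10277170 in 1 intron, at 565.2 to 1501.2 reads. All 4 sites of Mdm1 fell between 118057227 and 118057581 on chromosome 10, at 541.4 to 991.1 reads. For these genes the count of 4 is therefore a count of neighbouring events at 1 locus.

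In the Hox clusters the strongest site ranked 1 in HoxC, 5 in HoxB, 21 in HoxA and 606 in HoxD. By chromosome, the top sites as a whole lay at 0.877 to 5.06 per Mb. With 5 kb added at each end, HoxC had 21 top sites in 125.8 kb, HoxA 20 in 115.3 kb, HoxB 16 in 183.9 kb and HoxD 9 in 106.8 kb. The both class led in every cluster, with 10 sites in HoxC, 16 in HoxA, 12 in HoxB and 6 in HoxD. HOXC13-alone sites numbered 8 in HoxC, 2 in HoxA, 4 in HoxB and 2 in HoxD, and HOXC10-alone sites 1, 2, 0 and 1. The neither class had 2 sites in HoxC and 0 in the others. Some of these sites neighbour each other and share an event of a full-length factor, so the counts are not counts of separate loci.

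Within each cluster the end with the high-numbered genes was taken from the last top site onwards, so it holds no top site by definition. The position of that last site is what was observed. In HoxA the last top site lay in the promoter of Hoxa5, 54.2 kb into the window, and none lay in the remaining 61.1 kb towards Hoxa13. The strongest, in the promoter of Hoxa4 at 52190961 on chromosome 6, had 7933.0 reads, with 611.8 in the HOXC10 list and 2535.7 in the HOXC13 list. In HoxB the strongest lay in an intron of the Hoxb4 locus at 96319377 on chromosome 11, with 10044.1 reads, rank 5. The HOXC10 event there had 1345.2 reads and the HOXC13 event 2773.4. No HoxB top site lay in the last 83.2 kb, which holds Hoxb13.

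In HoxC all 10 both sites lay within 43.7 kb of the Hoxc4 end of the window, the Hoxc5 site that opens the list of sequences among them. Beyond them lay only HOXC13-alone sites, 6 of the 8, of which 4 were between the spans of Hoxc6 and Hoxc8 and 2 within Hoxc8. Those 6, at 45.1 to 48.9 kb into the window, had 531.8 to 2323.9 chimera reads and HOXC13 events of 118.8 to 284.5 reads. They lay in neighbouring pairs, and the sites of a pair shared a HOXC13 event, of 242.0, 118.8 or 284.5 reads. The last 76.9 kb, which holds Hoxc9 to Hoxc13, had no top site. In HoxD the last 35.6 kb, from Hoxd9 towards Hoxd13, had no top site, and the farthest sites, at 71.1 and 71.2 kb, were HOXC13 alone.

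These ends were not without events, and the absence of top sites there depends on the limit of 512.4 reads. The full chimera list had 17 events of at most 470.6 reads in the end of HoxA, 7 of at most 362.1 in HoxB, 12 of at most 214.8 in HoxC and 2 of at most 493.1 in HoxD. The HOXC13 list had 15, 6, 13 and 6 events there and the HOXC10 list 6, 1, 0 and 0, in the same order.

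**Figure D4:**
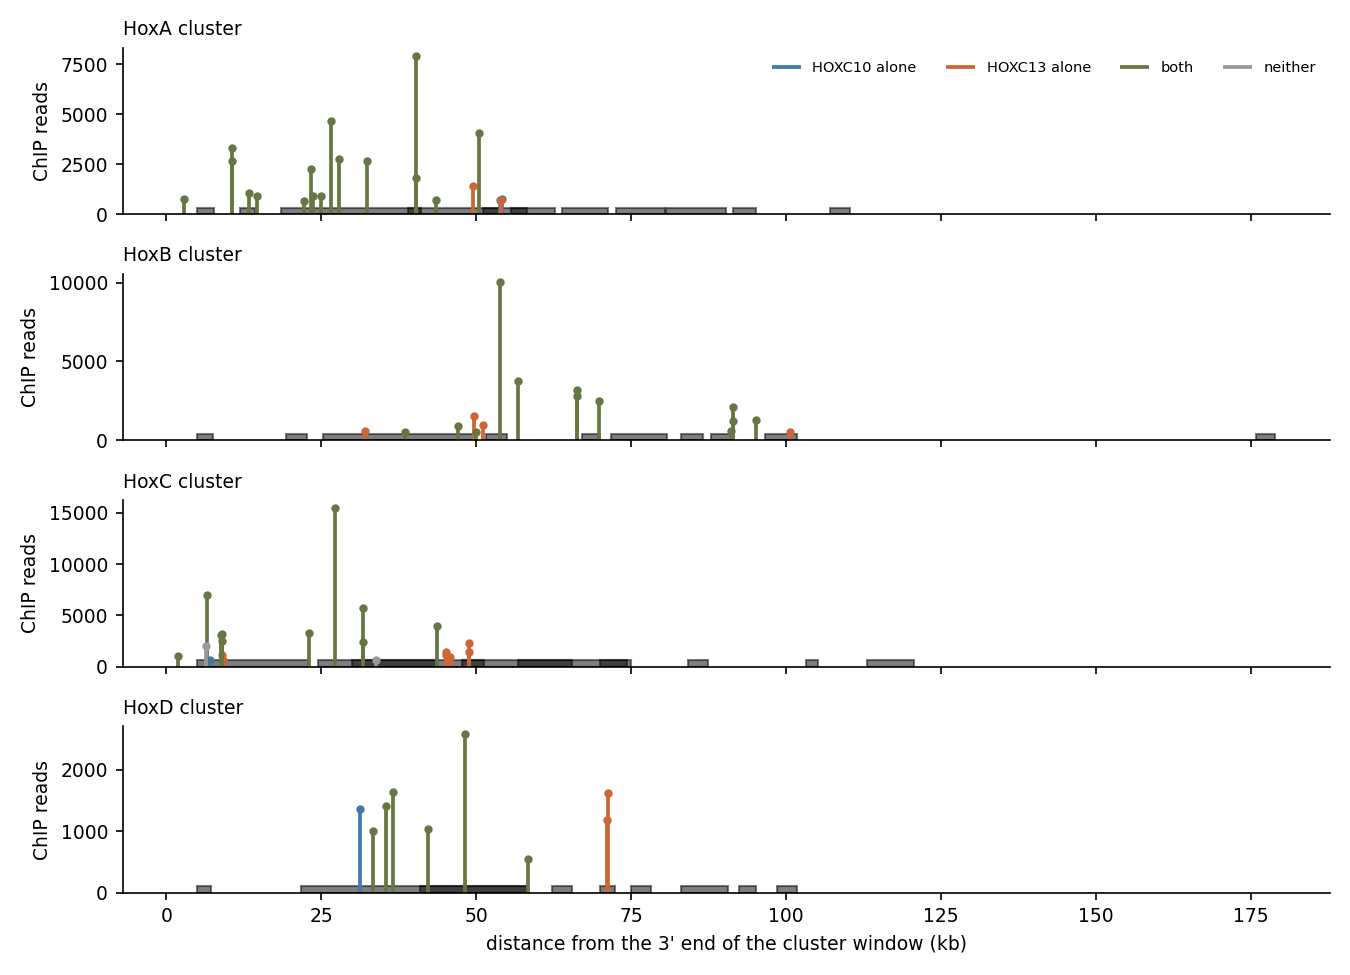
Top HOXC13:C10.1 sites in the 4 Hox clusters, drawn as ChIP reads in the chimera list (vertical axis, a scale for each cluster) against distance from the end with the low-numbered genes (kb), coloured by class. Grey boxes are gene spans, darker where they overlap. The last top sites lie at 54.2 kb in HoxA, 100.7 kb in HoxB, 48.9 kb in HoxC and 71.2 kb in HoxD.

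Of the genes in the lists, 80 had 3 or more top sites within 50 kb of the gene body, and the 30 with the most sites were named. They comprised 25 Hox genes, which share their sites with neighbours in the same cluster, and 5 others. Foxp1, which marks motor neurons of the lateral motor column, had 16 sites, of which 10 were both, 4 HOXC10 alone, 2 neither and 0 HOXC13 alone. All 16 lay in its introns, at 530.5 to 3414.4 chimera reads. The TALE cofactor genes Pbx3 with 14 sites, Meis1 with 13, Meis2 with 12 and Pknox2 with 10 held sites of all 4 classes, except that Meis2 had no HOXC10-alone site. At Meis1 the strongest site was HOXC10 alone, with 2448.6 reads, whereas at Pknox2 it was of the neither class, with 3930.3 reads at rank 200.

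Gene groups of the spinal cord were then counted by class. Over all 21728 protein-coding genes, 21.6% had a top site within 50 kb. HOXC10-alone sites were within 50 kb of 5.08%, HOXC13-alone sites of 9.94%, both sites of 9.19% and neither sites of 6.61%. The median number of top sites was 0. Genes of the lists differ in length from all genes, whose median is 17.4 kb, and the median length of each list is given beside its count.

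Of 39 Hox genes (median 3.49 kb), 35 had a top site, with a median of 14. HOXC10-alone sites were near 24, HOXC13-alone near 34 and both sites near 35. Of 9 TALE cofactor genes (139.2 kb), 6 had a site, with a median of 5, and the classes were spread over 4 to 6 genes each.

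In 20 genes of motor neuron identity (8.80 kb), 13 had a site. HOXC10-alone sites were near 6 (30.0%), both sites near 9, HOXC13-alone near 3 (15.0%) and neither near 1. In 17 genes of motor columns and pools (124.9 kb), 14 had a site. HOXC10-alone sites were near 8 (47.1%), both near 9, neither near 6 and HOXC13-alone near 1 (5.88%). In 18 genes of the retinoic acid pathway (25.8 kb), 7 had a site. HOXC10-alone sites were near 3, both near 3, neither near 2 and HOXC13-alone near 0 of 18, which allows a share of up to 16.7%.

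In the other lists HOXC13 alone was near as many genes as HOXC10 alone, or more. Slit, Robo and netrin genes (161.8 kb), which guide axons, had a site at 16 of 19, with HOXC10 alone near 9 and HOXC13 alone near 10. Of 22 Eph receptor and ephrin genes (28.4 kb), 6 had a site, with HOXC10 alone near 4 and HOXC13 alone near 4. Of 18 classical cadherin genes (149.3 kb), 9 had a site, HOXC10 alone near 3 and HOXC13 alone near 6. Of 23 genes of ventral patterning and Shh signalling (25.9 kb), 13 had a site, HOXC10 alone near 4, HOXC13 alone near 6 and both near 10. Caudal axis genes (9.20 kb) had a site at 6 of 15, HOXC10 alone near 2 and HOXC13 alone near 3, and genes of hair, nail and skin (6.94 kb), where HOXC13 acts in the adult, at 5 of 18, with each factor alone near 2.

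**Figure D5:**
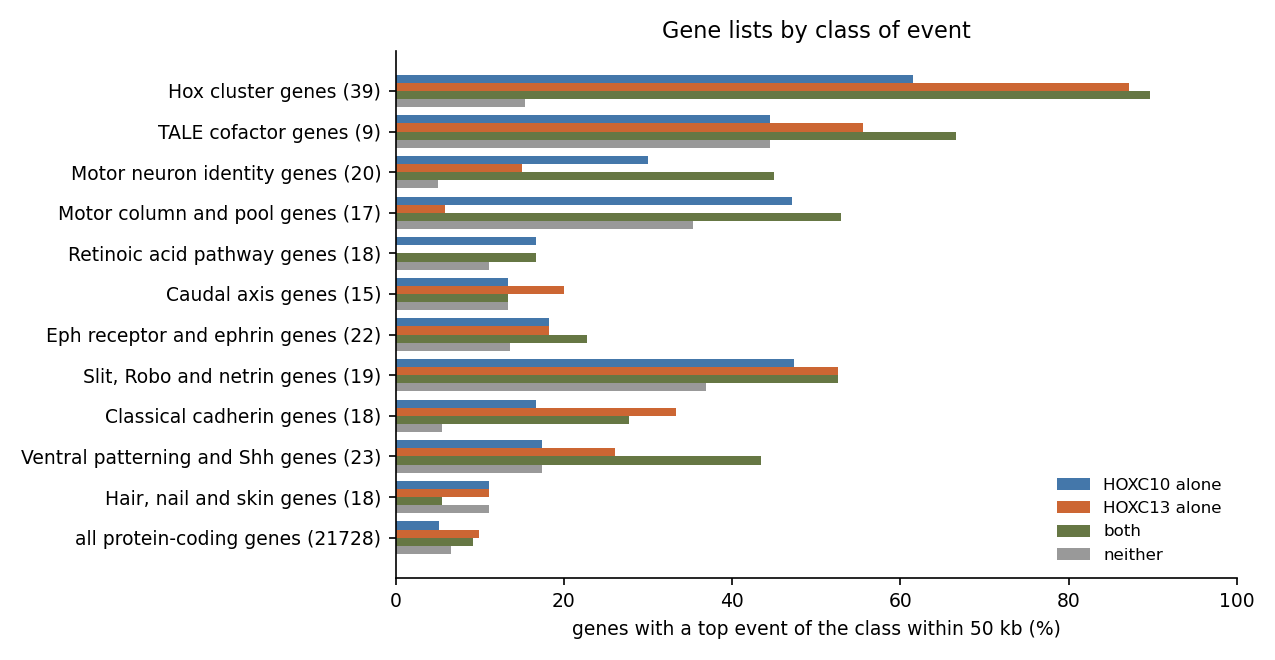
Share of the genes of each list (%) with a top HOXC13:C10.1 site of a class within 50 kb of the gene body, with the number of genes in brackets. The bottom group is all protein-coding genes, at 5.08 to 9.94%. HOXC13-alone sites are near 1 of 17 motor column and pool genes and 0 of 18 retinoic acid pathway genes.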

How the data were processed

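ChIP-seq reads of 42 libraries were aligned by the authors to mm10 with Bowtie 1.0.1, keeping a single best hit, and per the labels Picard 2.8.2 and edgeR 3.22.5 were also used. Binding events were called with MultiGPS for each condition over its pooled libraries. The authors deposited 1 event list for each condition, with an estimated count of ChIP reads for each event (expected counts pooled over libraries, not normalized) and log2 q-values against the control. The estimated counts ranked events within a list. Where counts of different lists are given for a site, they are not normalized and do not compare levels of binding. The deposited log2 q-values ranked the events in an alternative. The lists also hold the authors' log2 fold changes, log2 CPM and log2 p-values between conditions from edgeR, which were not used. Position tracks, day 4 lists and lists of unpatterned cells were not used.

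Events on chromosomes 1 to 19 and X were kept, which left out 83 chimera, 14 HOXC10 and 60 HOXC13 events. All 99228 deposited chimera sequences were found at their positions on GRCm38.p6. The precision of an event count is limited by the depth of each library, given in the report. Genes and TSSs came from GENCODE mouse release M21, in which Tbxt and Krt85 of the lists had no match by symbol. Categories were assigned in the order promoter, coding exon, UTR exon, other exon, intron and intergenic. Motifs were searched on both strands within 50 bp of the event, 101 bases in all, and flanks were windows of that length 1 kb to either side. Named genes were the 5 with most sites of a class by nearest TSS, those nearest to the 3 strongest sites of a class, and list genes with 3 or more sites, at most 30. Samples were grouped by their labels. The members, classes and gene lists were chosen with earlier results of these data known, and no list is independent evidence. Scripts used Python 3.11.15, pandas 2.3.3, numpy 2.4.6, SciPy 1.17.1 and pysam 0.24.0, and the class assignment and the intervals were tested on simulated data. Alternatives changed the ranking, the number of top sites, the distance, the length and stringency of the full-length lists, the promoter limit and the motif window.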

Additional observations from a re-analysis of the deposited data

How the results depend on the processing

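The difference between the shares near HOXC13 and near HOXC10 stayed between 14.6 and 16.1 points when sites were ranked by q-value, when the top 5000 or 20000 sites were taken, at distances of 50 or 200 bp, and with full-length events of a log2 q-value below -20. It turned to -9.0 points with the HOXC13 list at the length of the HOXC10 list. Alternatives chosen after seeing the data gave -8.48 points with the top 10000 events of each full-length factor and 15.9 points with 1 site for each locus. The share of HOXC13 alone was 30.0% in the top 5000, 31.9% in the top 20000, 19.5% with lists of equal length and 32.6% with the stricter threshold. The share of neither was 13.14% in the top 5000, 24.4% in the top 20000, 26.9% at 50 bp, 14.8% at 200 bp, 29.9% with lists of equal length and 23.3% with the stricter threshold. The promoter difference was -1.02 points within 5 kb of a TSS, with an interval of -2.78 to 0.838. The TTTAC difference was 9.81 points within 25 bp and 21.5 points within 100 bp and kept its direction under all 9 alternatives. The TTTAT and MEIS differences were not among the planned results and were run under those of the same alternatives that apply to them. The TTTAT difference ran from 18.7 to 26.4 points and the MEIS difference in iHoxc10 cells from 28.1 to 42.5 points. No paired analysis was possible because the lists pool their libraries, and for the same reason no library could be left out. The low signal fraction of the HOXC10 libraries limits the absence of a HOXC10 event to what was detectable at that depth.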

Other observations

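Chromosome X had 150 top chimera sites, 0.877 per Mb, against 2.81 to 5.06 per Mb on the other chromosomes. Its share of neither sites was 32.7% and its share of both sites 22.7%, against 14.4 to 21.2% and 29.6 to 41.2% elsewhere. HOXC13 alone exceeded HOXC10 alone on all 20 chromosomes, by 8.32 points on chromosome 12 to 23.5 points on chromosome 6, under the full list lengths.

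The event base was soft-masked, as repeats are in the reference, at 10.7% of HOXC13-alone sites (9.69 to 11.9%), 7.13% of HOXC10-alone sites (5.96 to 8.51%), 7.49% of both sites and 8.42% of neither sites, and at 10.96% of all chimera events.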
